A study of Homo sapiens with 12 samples.

Results

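The mRNAs described here encode 4 proteins of intracellular signalling: NRAS, SPRED1, YWHAG and PPP3R1. They were taken by gene name from a table of RNA sites crosslinked to the translation initiation factor eIF3 in 293T cells, and they are 4 of its 479 genes. Together they had 14 of 1477 clusters, where a cluster is a short stretch of RNA covered by reads that carry crosslink marks. By the authors' annotation 11 of the 14 clusters lay in a 5′ UTR and 3, all of NRAS, in coding sequence. Of all clusters of the table, 67.8% were in a 5′ UTR. The 14 clusters come from 5 sites, each counted once for every eIF3 subunit it was listed for, so they are not independent. PPP3R1 was the 1 gene of the set listed for every subunit examined and held the most reads, up to 169 in a cluster. NRAS and YWHAG were listed for eIF3a, eIF3d and eIF3g but not for eIF3b, and SPRED1 was listed for eIF3a alone.

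The study applied PAR-CLIP to 293T, a transformed human embryonic kidney line. All groups shared 1 line and 1 treatment: 100 µM of the uridine analog 4-thiouridine for 14 h, then ultraviolet light at 0.15 J per square cm. Crosslinked RNA was recovered with an antibody against eIF3b, trimmed with RNase T1, and separated with its protein on a denaturing gel. The groups are 12 libraries, 3 for each of the eIF3 subunits a, b, d and g, and no untreated or control library is among them.

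eIF3 is a complex of many subunits that binds the small ribosomal subunit and helps to recruit it to mRNA, and its contacts with 5′ UTRs can raise or lower translation of single mRNAs. Ras proteins are small GTPases at the cell membrane that switch on a cascade of protein kinases when loaded with GTP. SPRED proteins restrain this pathway, 14-3-3 proteins bind phosphorylated partners such as RAF kinases, and calcineurin is a calcium-activated phosphatase best known for releasing NFAT transcription factors into the nucleus.

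The table has 1 value for each cluster and subunit and does not separate replicates. No value below therefore has a spread between libraries, and no difference between subunits could be tested. The lists held 375 clusters for eIF3a, 298 for eIF3b, 403 for eIF3d and 401 for eIF3g, with 15132, 19187, 24150 and 62405 reads. Median reads per cluster were 22, 19, 23 and 20 in that order, and no cluster of the table had fewer than 8 reads. A gene missing from a list may thus have had reads below whatever limit the authors used, and its absence is not a level of 0. None of the 5 genes associated with the 293T line that were looked up (LIN28B, PAX2, NEFL, NEFM and ADRA1A) and none of 8 markers of other cell types had a cluster. A list of this size does not test the identity of the cells.

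NRAS (ENSG00000213281) encodes a Ras GTPase. It had 1 site, in a coding exon on the minus strand at chr1:115256528-115256550 (hg19), with the same start and end in each of the 3 lists that held it. The site had 14 reads in eIF3a, 15 in eIF3d and 10 in eIF3g. All these values lay below the median cluster of their list. In eIF3a it ranked 253 of 375 clusters, in eIF3d 280 of 403 and in eIF3g 352 of 401. Coding exons were a minor class, with 42 clusters in eIF3a, 38 in eIF3d and 32 in eIF3g. Within that class NRAS was also in the lower part, at rank 28 of 42, 26 of 38 and 28 of 32. Its 39 summed reads placed it at rank 302 of the 479 genes.

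SPRED1 (ENSG00000166068), an inhibitor of Ras signalling, had a single cluster in its 5′ UTR on the plus strand at chr15:38544654-38544674, with 40 reads in eIF3a. It was not listed for eIF3b, eIF3d or eIF3g. Its strength in eIF3a was above the median, at rank 94 of 375 clusters and rank 59 of 254 among 5′ UTR clusters. Few genes of that strength were so restricted: of 97 other genes whose strongest eIF3a cluster had reads within 1.5 times those of SPRED1 in either direction, 85 (87.6%) were also listed for eIF3d, 82 (84.5%) for eIF3g and 75 (77.3%) for eIF3b. Only 2 of the 97 were listed for eIF3a alone. Altogether, 11 of the 479 genes of the table (2.30%) were listed for eIF3a alone, out of 328 genes listed for eIF3a. This was thus rare in the whole table and not only at this strength. The median of these 11 genes was 20 reads, and SPRED1 had the second most reads among them. Listing for a single subunit, whichever it was, applied to 94 of the 479 genes (19.6%).

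Of the Ras pathway, 30 genes were looked up and 3 had a cluster in any list, NRAS and SPRED1 among them.

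YWHAG (ENSG00000170027), the gamma isoform of 14-3-3, had 1 site in its 5′ UTR on the minus strand at chr7:75988198-75988228. It had 26 reads in eIF3a, 26 in eIF3d and 25 in eIF3g, so that the lists differed by 1 read. It ranked 158 of 375, 168 of 403 and 167 of 401 clusters, somewhat above the median in all of them. The start was shared, while the eIF3d cluster ended at 75988224. Of the 7 genes of the 14-3-3 family looked up, YWHAG was the 1 with a cluster.

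PPP3R1 (ENSG00000221823) encodes calcineurin B, the regulatory subunit of calcineurin. Its 5′ UTR carried 2 separate clusters on the minus strand. The stronger, at chr2:68479456-68479480, had 166 reads in eIF3a and 148 in eIF3b. In eIF3d it had 169 reads and in eIF3g 111. It stood near the top of every list, at rank 12 of 375, 22 of 298, 17 of 403 and 40 of 401. Among 5′ UTR clusters alone its ranks were 8, 11, 7 and 11. The weaker cluster, at chr2:68479535-68479563, lies upstream on this strand, 55 nt away in the genome. It had 29 reads in eIF3a, 37 in eIF3d and 24 in eIF3g and was not listed for eIF3b. The stronger cluster held 5.72 times the reads of the weaker one in eIF3a, 4.57 times in eIF3d and 4.63 times in eIF3g, so the proportion between the sites was alike in the 3 lists that hold both. Over all genes with a 5′ UTR cluster, at least 2 such clusters were found in 22 of 226 genes in eIF3a (9.73%). In eIF3d the count was 24 of 248 (9.68%) and in eIF3g 25 of 244 (10.2%). These bases include genes of any number of reads, and genes as strong as PPP3R1 were not counted apart.

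**Figure D1:**
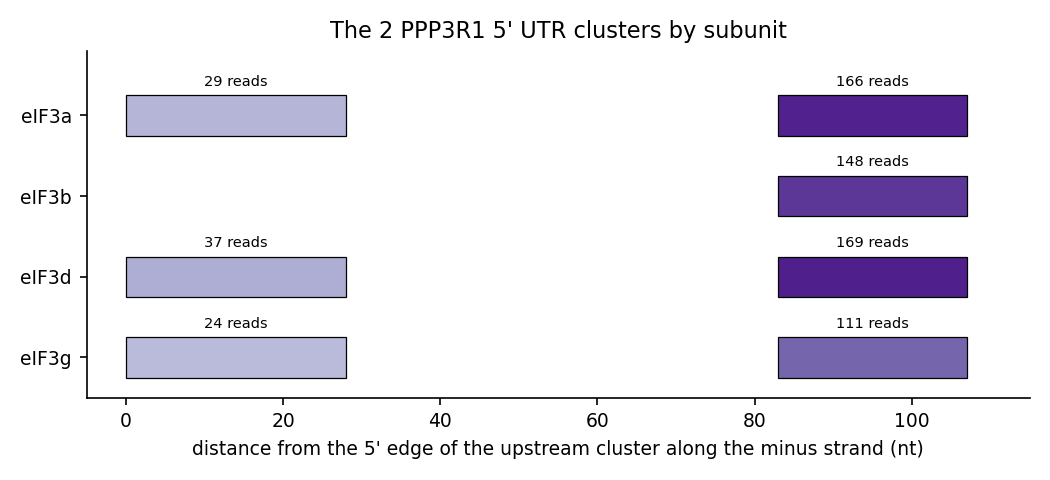
The PPP3R1 clusters in the 4 subunit lists, drawn by distance in nt along the minus strand from the 5′ edge of the upstream cluster, with darker boxes for more reads and the reads printed above each box. The stronger cluster is in all 4 lists with 111 to 169 reads, and the weaker one is missing from eIF3b.

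With 684 summed reads PPP3R1 ranked 21 of 479 genes, and it supplied most of what the set held. Its share of the set's reads was 70.9% in eIF3a, 83.4% in eIF3d and 79.4% in eIF3g, and in eIF3b it was the only member. Of 17 calcineurin and NFAT genes looked up, which included the catalytic subunits, calmodulins and NFAT factors, PPP3R1 was the 1 with a cluster.

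**Figure D2:**
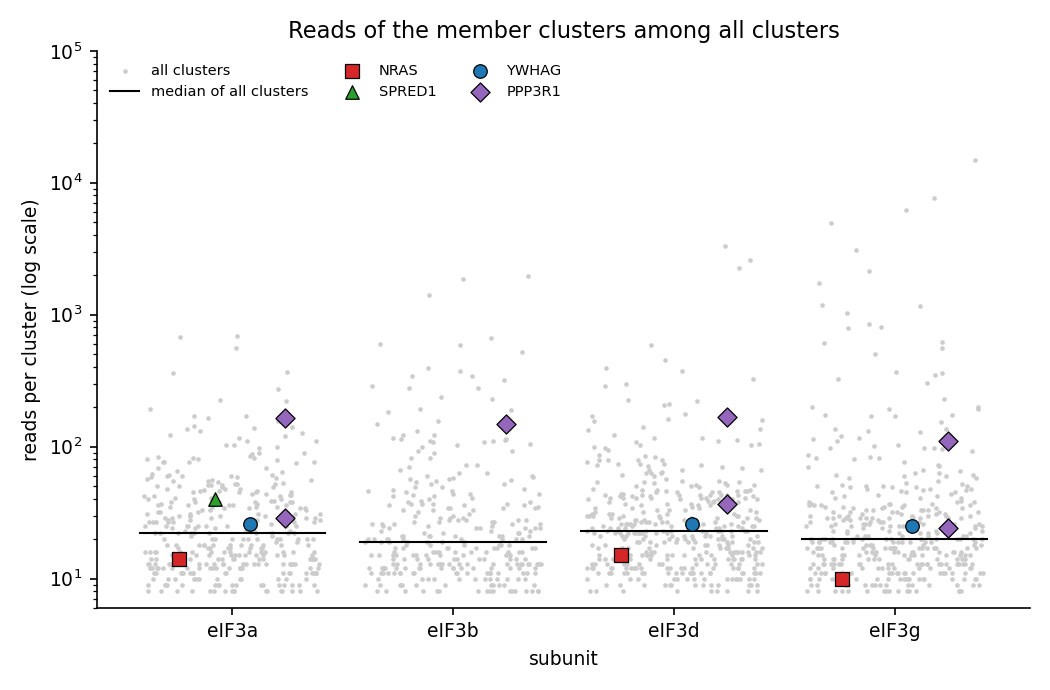
Reads per cluster on a log scale for each subunit, with all clusters in grey, their median as a line, and the clusters of NRAS, SPRED1, YWHAG and PPP3R1 as coloured symbols. PPP3R1 lies near the top in every list, YWHAG close to the median and NRAS below it.

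The 3 pathway lists together had 5 of 54 genes with a cluster, beside 2.21% of the 20056 protein-coding genes of a reference table. Of these 5 genes, 4 are the members themselves, which were chosen because they were in the table. Apart from them 1 of 50 genes (2.0%) had a cluster, which is near the background. The other 14-3-3 isoforms and the calcineurin catalytic subunits had none. The count takes no account of which genes 293T cells express.

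All 4 members were listed for eIF3a, for which 68.5% of the genes of the table were listed. For eIF3d there were 3 members, beside 74.3% of the genes, and for eIF3g 3, beside 73.3%. For eIF3b there was 1 member, beside 55.1%, so eIF3b was the list missing most often both in the set and in the table. One member of 4 was listed for all subunits, against 33.6% of the genes. These are counts over 4 genes, and their difference from the table was not tested.

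The combination of NRAS and YWHAG, every subunit but eIF3b, was the most frequent one among genes missing from a single list. It held 55 genes, while 22 lacked eIF3d alone, 20 lacked eIF3a alone and 16 lacked eIF3g alone. The median strongest cluster of these genes was 16 reads in eIF3a, 21 in eIF3d and 20 in eIF3g, against 34, 37 and 29 for genes of all 4 lists. Within the 55 genes YWHAG was at rank 23 by summed reads, with 77, and NRAS at rank 45, with 39. In 40 of the 55 genes (72.7%) every cluster was in a 5′ UTR, as in YWHAG, and in 7 (12.7%) every cluster was in a coding exon, as in NRAS. For the 161 genes of all 4 lists these counts were 111 (68.9%) and 7 (4.35%). Among other genes with eIF3a reads within 1.5 times those of NRAS, 67 of 125 (53.6%) were listed for eIF3b, and for YWHAG this was 71 of 101 (70.3%). By eIF3d reads the shares were 44.8% for NRAS and 59.5% for YWHAG, and by eIF3g reads 42.1% and 68.6%. Many other genes of like reads were thus not listed for eIF3b either, and the reason was not tested.

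**Figure D3:**
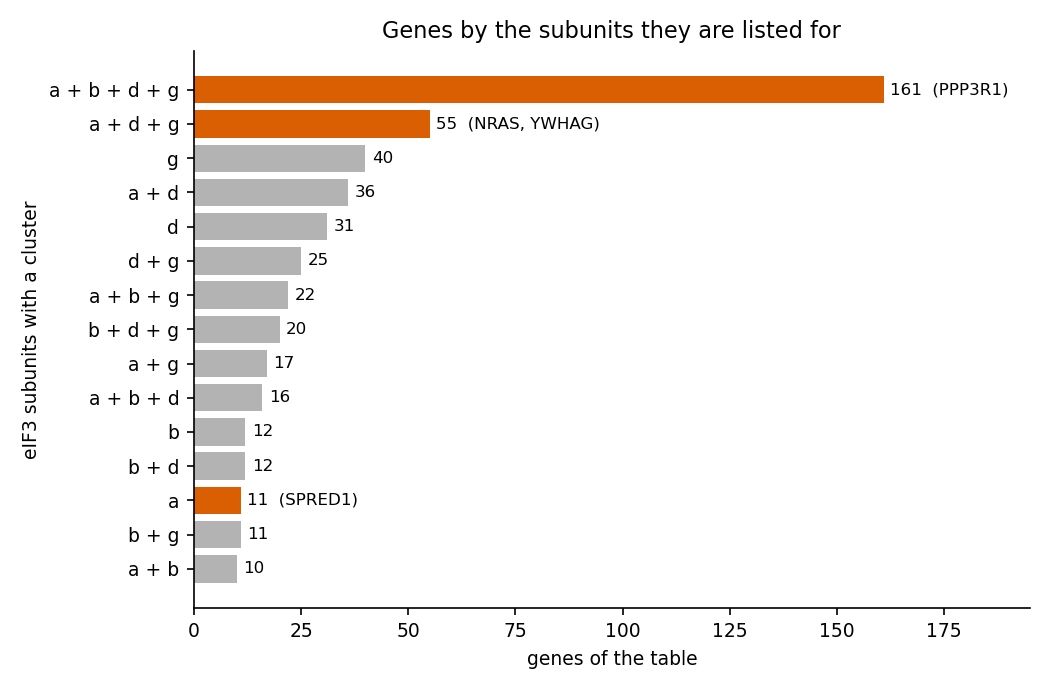
Number of genes of the table for each combination of subunits they were listed for, with the combinations of the 4 members in orange. PPP3R1 belongs to the 161 genes of all lists, NRAS and YWHAG to the 55 that lack eIF3b alone, and SPRED1 to the 11 of eIF3a alone.

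Cluster edges were then compared between lists. Of the 4 member sites found in more than 1 list, 3 had the same start and end in each, YWHAG being the exception at its end. Over the table, 180 of 438 such sites (41.1%) had identical edges in every list that held them, and 279 had the same start.

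Reads at a site were then compared between subunits as differences of log2(reads + 1), which gave 15 comparisons at the 4 shared sites. None exceeded a 2-fold difference without scaling. They ran from -0.60 to 0.34. For eIF3d against eIF3a the difference was 0.09 in NRAS, 0.00 in YWHAG, and 0.03 and 0.34 at the stronger and weaker PPP3R1 clusters, around a median of 0.14 over 299 shared sites. For eIF3g against eIF3a it was -0.45 in NRAS, -0.05 in YWHAG, and -0.58 and -0.26 at the PPP3R1 clusters, where the median of 284 shared sites was 0.00. The members lay within the middle of these distributions, between percentiles 31.5 and 58.5 over both comparisons. Sequencing depth per library is unknown, and the size of these differences depended on the scaling. Scaled to all reads in clusters, 9 of the 15 passed 2-fold, and these were all 9 of the comparisons with eIF3g, which was the lower one in each.

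**Figure D4:**
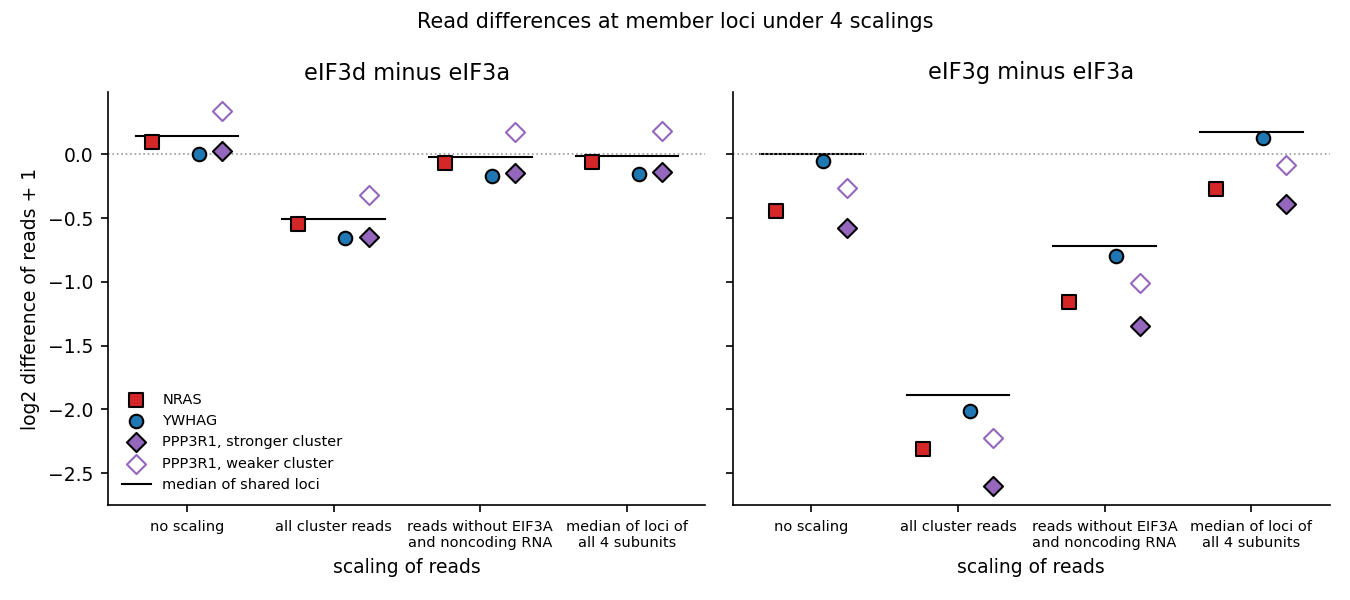
Log2 differences of reads + 1 for eIF3d minus eIF3a and eIF3g minus eIF3a at the NRAS, YWHAG and PPP3R1 sites without scaling and under 3 scalings, with the median of all shared sites as a line. The points move together with that line, from -0.58 to -2.60 at the stronger PPP3R1 cluster for eIF3g when reads are scaled to all reads in clusters.

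As a share of all reads in clusters, the members held most in eIF3a, 1.82% (95% Wilson interval 1.62 to 2.04), and least in eIF3g, 0.272% (0.234 to 0.316). The eIF3d share was 1.02% (0.903 to 1.16) and that of eIF3b, PPP3R1 alone, 0.771% (0.657 to 0.905). These intervals cover counting error only, and reads copied by PCR are not independent molecules. The denominators differ in kind: without EIF3A, the mRNA of an eIF3 subunit, and noncoding RNA, 23192 of the 62405 eIF3g reads were left and 13507 of the 15132 eIF3a reads. On that basis the shares of subunits a, b, d and g were 2.04%, 1.23%, 1.62% and 0.733%, with eIF3a highest and eIF3g lowest under both denominators. These sums cover 5, 1, 4 and 4 member clusters, so their order also reflects which members were listed. Both denominators are sums of reads, in which a few large clusters can weigh heavily. Median reads per cluster were 22 in eIF3a and 20 in eIF3g. The stronger PPP3R1 cluster is in all 4 lists. With the second denominator, its log2 differences from eIF3a were -0.004 for eIF3b, -0.15 for eIF3d and -1.35 for eIF3g. Medians over all sites shared with eIF3a were -0.11, -0.02 and -0.72 in that order. The median shared site was thus also lower in eIF3g than in eIF3a under this scaling. At -1.35 the cluster stood at percentile 29.8 of 284 shared sites. When reads were scaled instead to the median of sites in all 4 lists, its differences were 0.29, -0.14 and -0.39.

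T-to-C conversions mark uridines that were crosslinked. At the stronger PPP3R1 cluster there were 196 conversions in 166 reads in eIF3a, 143 in 148 in eIF3b, 124 in 111 in eIF3g and 10 in 169 in eIF3d. Conversions per read were therefore 1.18, 0.966 and 1.12 in eIF3a, eIF3b and eIF3g and 0.0592 in eIF3d. The weaker PPP3R1 cluster had 1.21 in eIF3a, 1.42 in eIF3g and 0.216 in eIF3d.

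YWHAG had 27 conversions in 26 reads in eIF3a, 26 in 25 in eIF3g and 8 in 26 in eIF3d. NRAS had 18 in 14 reads in eIF3a, 11 in 10 in eIF3g and 4 in 15 in eIF3d. SPRED1 had 40 in 40 reads in eIF3a. Every member cluster outside eIF3d thus had about 1 conversion per read or more, between 0.966 and 1.42, and every member cluster in eIF3d had at most 0.308. The medians of all clusters were 1.02, 1.05, 0.182 and 1.02 in eIF3a, eIF3b, eIF3d and eIF3g, so the eIF3d list was low as a whole and not at these genes alone.

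In eIF3d the member clusters had 4 conversions at 15 reads, 8 at 26 and at 37 reads, and 10 at 169 reads. The stronger PPP3R1 cluster had 18.9 times as many conversions per read in eIF3g as in eIF3d, at percentile 91.0 of 293 shared sites. The ratio was 4.12 in NRAS, 3.38 in YWHAG and 6.55 at the weaker PPP3R1 cluster, around a median of 5.33 over these sites. Compared with 5′ UTR clusters of like reads in eIF3d, the stronger PPP3R1 cluster was not apart: 6 others ran from 0.0222 to 0.0902 conversions per read, with a median of 0.0693. The sources used here do not say how conversions were counted.

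**Figure D5:**
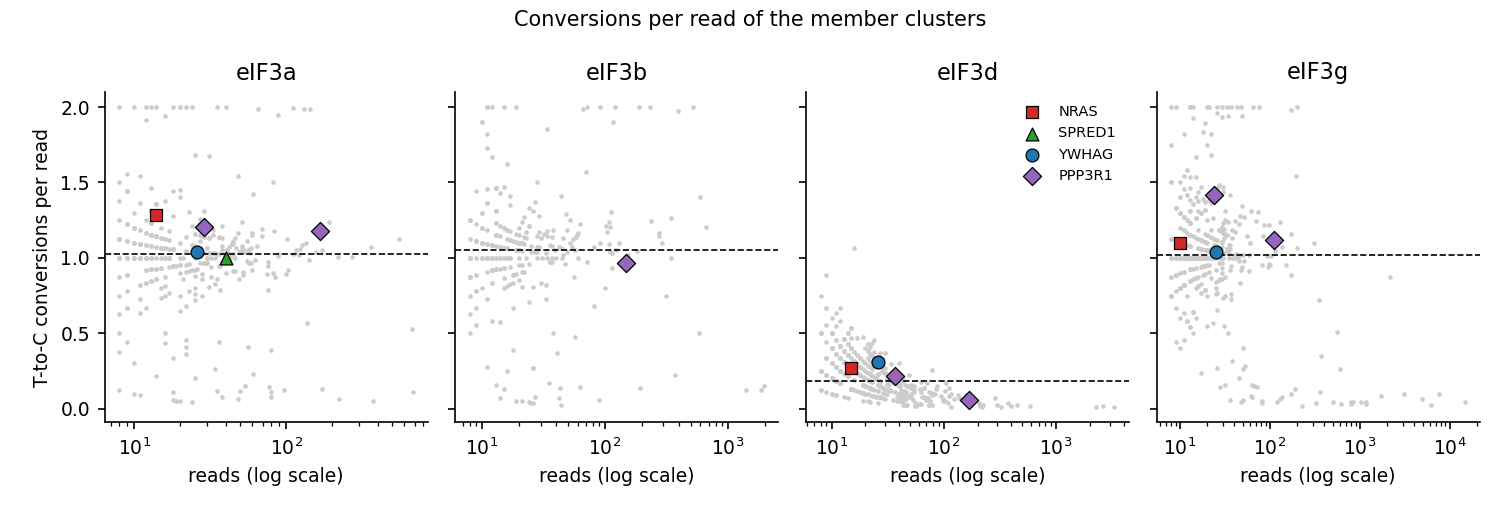
T-to-C conversions per read against reads per cluster (log scale) in each subunit, with all clusters in grey, their median as a dashed line, and the members as coloured symbols. Members lie between 0.966 and 1.42 in eIF3a, eIF3b and eIF3g and at or below 0.308 in eIF3d, where the member cluster with the most reads has the lowest value.

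Genes with the most similar reads were found among those listed for exactly the same subunits, by the Euclidean distance of log2(reads + 1) of the strongest cluster. For PPP3R1 they were MORF4L2, MTPN and RPS15A, out of 160 genes over 4 subunits, at distances of 0.52, 1.00 and 1.03. MORF4L2, a chromatin-associated protein, had strongest clusters of 157, 183, 225 and 117 reads for subunits a, b, d and g, all in its 5′ UTR. For YWHAG they were MIF, SMG9 and TROVE2, out of 54 genes over 3 subunits, at 0.33, 0.41 and 0.55. MIF, a cytokine, had 27, 30 and 30 reads in eIF3a, eIF3d and eIF3g. For NRAS they were TMED5, ZNF207 and RNF187, at 0.41, 0.48 and 0.52, and TMED5, a cargo receptor of the secretory pathway, had its clusters in coding exons too, with 15, 13 and 13 reads. For SPRED1, with 1 subunit to compare, they were PKMYT1, SAT2 and ID4, with 34, 31 and 23 reads in eIF3a. The distance reflects the level of reads and the lists share their antibody, so likeness here is of counts alone.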

How the data were processed

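PAR-CLIP reads of 12 libraries were summarised by the authors in 1 table of clusters with subunit, gene, hg19 position, strand, annotation, reads and T-to-C conversions. The authors deposited reads as whole-number counts with no scaling, per the file headers, and replicates are not separated. Per the submitters' processing notes, cutadapt, Bowtie, bedtools and hg19 were used. The sources used here do not give the cluster caller, its limits, the treatment of reads that match several places or the combination of replicates. Nothing says whether positions count from 0 or 1, and they are printed as deposited.

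Depth per library is unknown. Ranks and percentiles were computed within a subunit, and same-strand clusters sharing 1 nt or more were merged into 558 sites. A pair of gene names differing in case was joined. Python 3.11.15 with pandas 2.3.3 and scipy 1.17.1 was used, and the functions were tested on simulated data. No test was run, because each group has 1 pooled value, so edgeR on libraries was not used.

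Symbols of the 4 genes and of all 54 pathway genes matched a RefSeq table (GRCh38.p14), used for names only. No hg19 sequence was used here, so no site sequence is printed. The members and lists were chosen with earlier results of these data known. Genes named are the 4 members, pathway genes with a cluster, and the 3 genes nearest to each member, and 1 gene that this rule takes is not reported here.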

Additional observations from a re-analysis of the deposited data

How the results depend on the processing

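The 14 clusters of the 4 genes became 11 when only clusters at or above the median of their list were kept, which removed the 3 of NRAS, and stayed 14 when matched without case and by Ensembl ID. All 11 in the 5′ UTR were kept, and 4 of the 5 pathway genes had a cluster there. The median percentile of the members by reads in eIF3g was 57.4, and 65.0 among 5′ UTR clusters. Those of the other lists stayed within a 95% Wilson interval set by the number of clusters in the list. That interval does not cover counting error of the reads. Shares of cluster reads rose to 1.23% in eIF3b, 1.62% in eIF3d and 0.733% in eIF3g without EIF3A and noncoding RNA. Of 15 log2 differences, 0 passed 2-fold and 4 were above 0, which became 9 and 0 when scaled to reads in clusters, and 7 and 1 without EIF3A and noncoding RNA. Scaled to the median of sites in all 4 lists, 0 passed 2-fold and 7 changed side of 0 or left it. A pseudocount of 0.1 turned none. The median percentile of conversions per read went from 67.9 to 78.8 in eIF3a, from 29.4 to 8.33 in eIF3b (PPP3R1 alone) and from 68.5 to 43.9 in eIF3d among 5′ UTR clusters of like reads. The eIF3d median is the value of NRAS, whose cluster is in a coding exon. In eIF3d YWHAG rose from 76.8 to 85.0 and the stronger PPP3R1 cluster from 12.3 to 33.3.

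No paired analysis was possible because the table does not separate replicates, and leaving out a replicate was not run for the same reason. With 10 to 26 reads, the NRAS and YWHAG clusters could not show moderate differences between lists. The counting error alone of the eIF3g minus eIF3a difference in NRAS was 1.17 in either direction on the log2 scale. SPRED1, with 40 reads in eIF3a alone, had no difference between lists to compute.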
